A study of Homo sapiens with 8 samples.

Results

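Protease inhibitors of 3 families were followed in OVISE, a cell line from a clear cell carcinoma of the human ovary. The 9 genes are the WAP domain genes PI3, SLPI and WFDC2, the serpins SERPINA1, SERPINA3, SERPINB1 and SERPINB5, and the cystatins CSTA and CST6. All 9 were found among the 27757 loci of the deposited table through their RefSeq accessions, each at a locus of its own that held no other gene symbol. The genes were chosen by name with measurements from these same libraries already known. PI3 had been seen among the largest rises with EGF, and which values brought in the others is not recorded. The responses of PI3 to EGF, and their difference between genotypes, are therefore given as a description with no p-value, and the counts over the 9 genes support nothing about the choice. For the other members the values behind the choice may be those tested, so their p-values may not be independent of it.

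Antiproteases hold secreted and lysosomal proteases in check. WAP proteins are small secreted inhibitors folded around cysteine pairs, and several of their genes form a cluster on the long arm of chromosome 20. Serpins trap a protease irreversibly by a change of shape, and those of clade A are secreted while most of clade B stay inside the cell. Cystatins block cysteine proteases such as the cathepsins. In mucosal epithelia PI3 and SLPI are best known as inhibitors of neutrophil elastase, and SERPINA1 and SERPINA3 as acute phase proteins of the liver.

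Total RNA was sequenced in 4 groups with 2 libraries each: cells with wild-type SYK left untreated (SYK-WT), the same cells given epidermal growth factor (SYK-WT EGF), SYK knockout cells left untreated (SYK-KO) and knockout cells given the factor (SYK-KO EGF). Treated cells received 50 ng/ml of EGF, the ligand of the receptor kinase EGFR, over 24 h. The SYK gene, which encodes a cytoplasmic tyrosine kinase, was disrupted with a Cas9 nickase and guides against exon 2, followed by puromycin and cloning of single cells. The labels name neither the number of knockout clones nor the origin of the wild-type cells, so a genotype difference and a clonal difference cannot be told apart. Nor do they say whether paired libraries are independent cultures, so the spread behind each p-value is that of these library pairs and may be technical. The series asks how SYK shapes the transcriptome downstream of EGFR.

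Expression is in FPKM, fragments scaled to transcript length and library size, a unit that allows levels of different genes to be compared. The steps between low values gave depths of about 22700000 to 26800000 fragments per library. SYK transcript was present in every library at 2.80 to 5.30 FPKM. It stood at 4.91 and 5.30 FPKM in SYK-WT, 3.88 and 3.62 FPKM in SYK-WT EGF, 3.11 and 3.43 FPKM in SYK-KO and 2.80 and 3.16 FPKM in SYK-KO EGF. All knockout libraries thus lay below all wild-type libraries. The transcript level checks nothing about the protein, because a cut in an early exon can leave RNA behind. All 6 clear cell carcinoma markers and all 6 epithelial markers reached 1 FPKM in at least 2 libraries, with EPCAM between 465 and 564 FPKM. None of the 6 leukocyte, 5 neutrophil, 5 fibroblast, 3 endothelial or 4 hepatocyte markers did, and their summed levels stayed at or below 0.673 FPKM in each list. ELANE, MPO and FCGR3B were listed at 0 in all 8 libraries, as were COL3A1, DCN, LUM and TTR. The SYK-WT pair lay furthest apart, with a median absolute difference of 0.15 in log2(FPKM + 1) against 0.0669 to 0.0828 in the other groups.

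The coding stretches of PI3 and SLPI are shown because these neighbours gave the same order of group means. Each runs from the first to the last of 8 cysteine codons in the GENCODE transcript that matches the table's accession, with the cysteine codons in capitals. PI3 has 8 such codons in its 117 coding codons and SLPI 16 in its 132, which form 2 runs of 8.
PI3, codons 76 to 113: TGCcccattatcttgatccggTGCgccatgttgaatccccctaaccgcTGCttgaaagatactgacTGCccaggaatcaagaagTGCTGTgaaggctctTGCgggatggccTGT
SLPI, codons 89 to 126: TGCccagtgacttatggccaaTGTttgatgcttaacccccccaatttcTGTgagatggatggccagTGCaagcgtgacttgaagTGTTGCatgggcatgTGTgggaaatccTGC
SLPI, codons 35 to 72: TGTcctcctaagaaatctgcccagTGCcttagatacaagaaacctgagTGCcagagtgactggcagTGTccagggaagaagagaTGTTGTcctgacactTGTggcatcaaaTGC
The gaps between the cysteine codons of PI3 were 6, 8, 5, 5, 0, 3 and 3 codons, and the second stretch of SLPI had the same 7 gaps. The first stretch of SLPI differed only in its opening gaps, with 7 and 7. PI3 and the second stretch of SLPI shared 60 of 114 bases position by position (52.6%), whereas PI3 and the first stretch shared 46 (40.4%) and the stretches of SLPI shared 45 with each other (39.5%).

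PI3 encodes elafin, an inhibitor of neutrophil elastase and proteinase 3 (chromosome 20, 43803539 to 43805185, hg19). Its level was 3.07 and 2.04 FPKM in SYK-WT, 17.9 and 22.3 FPKM in SYK-WT EGF, 19.6 and 23.2 FPKM in SYK-KO and 64.8 and 74.5 FPKM in SYK-KO EGF. Every library with either EGF or the knockout lay above both SYK-WT libraries, and both SYK-KO EGF libraries lay above all others. The SYK-KO and SYK-WT EGF values overlapped, so untreated knockout cells held PI3 in the range that wild-type cells reached with EGF. In bulk RNA, more cells that express a gene and more RNA per cell cannot be told apart.

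The ratio of mean FPKM for EGF was 7.88 in SYK-WT and 3.25 in SYK-KO cells. In log2(FPKM + 1) these changes were 2.58 and 1.66, each with an SE of 0.161. Without EGF the knockout held 8.39 times the wild-type level, a log2 difference of 2.67 with an SE of 0.161 from pairs of libraries (adjusted p = 3.31e-05, limma with Benjamini-Hochberg adjustment). With EGF the ratio was 3.46 and the log2 difference 1.75 (limma adjusted p = 0.000213). These comparisons share libraries with those by which PI3 was known. Low SYK-WT values enlarge both the EGF rise and the untreated genotype difference. The p-values of PI3 are therefore not independent of its choice and are no evidence apart from it. The fitted EGF response was lower in SYK-KO than in SYK-WT cells by a log2 difference of -0.92, which became -1.13 when SYK-WT replicate 1 was left out and -0.71 when SYK-WT replicate 2 was.

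**Figure D1:**
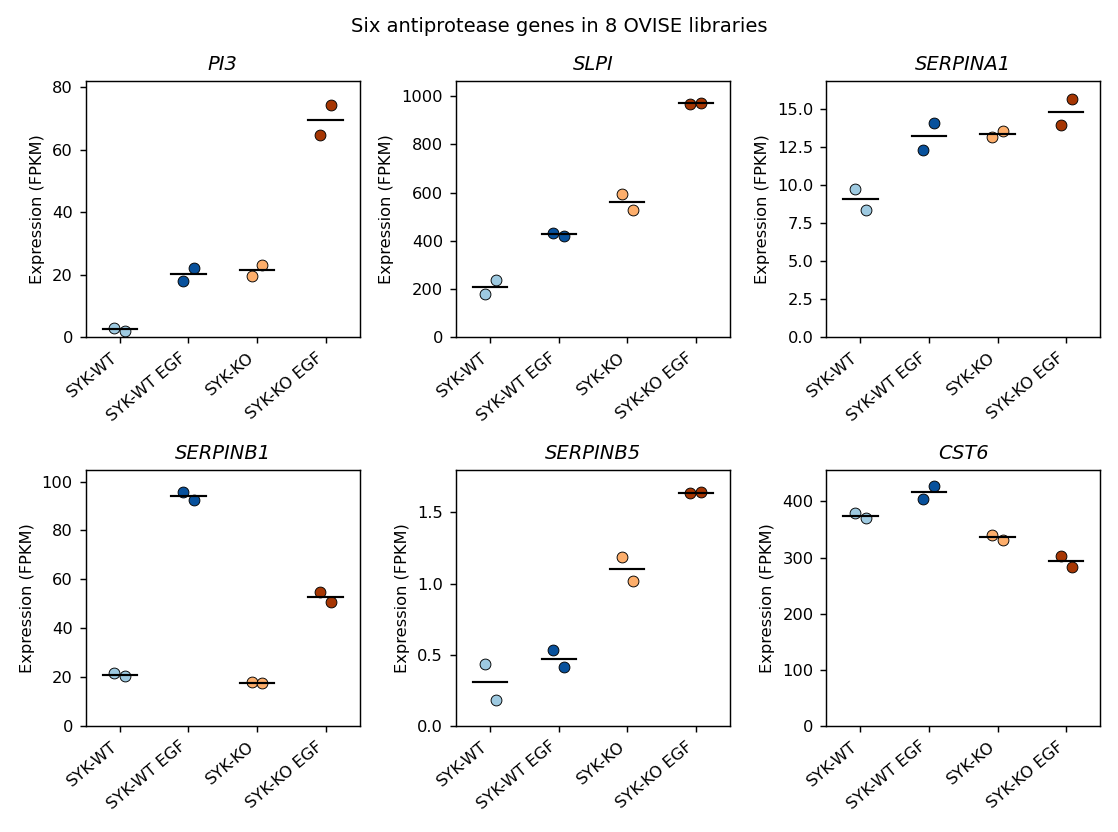
Expression in FPKM (vertical axes from 0) of the 6 members that were tested, with 1 point per library, lines at the mean of 2 libraries and the 4 groups along the horizontal axis. PI3 and SLPI climb from SYK-WT to SYK-KO EGF, SERPINB1 is high only in the EGF groups, SERPINB5 is higher in both knockout groups and CST6 is lowest in SYK-KO EGF at 303 and 284 FPKM.

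SLPI encodes the secretory leukocyte peptidase inhibitor, which acts on elastase and cathepsin G (chromosome 20, 43880879 to 43883205, hg19). It was the most abundant WAP gene of the 3 in every library. Its level was 178 and 235 FPKM in SYK-WT, 433 and 421 FPKM in SYK-WT EGF, 593 and 526 FPKM in SYK-KO and 967 and 972 FPKM in SYK-KO EGF. No groups overlapped, and unlike PI3 the untreated knockout lay above EGF-treated wild-type cells. EGF raised SLPI 2.07-fold in SYK-WT cells (log2 difference 1.06 ± 0.123, SE; limma adjusted p = 0.00108). In SYK-KO cells the rise was 1.73-fold, or 0.79 in log2 (limma adjusted p = 0.00706). This second call ended without SYK-KO replicate 2 (limma adjusted p = 0.0669) or without SYK-KO EGF replicate 1 (0.0602) or 2 (0.0551). The knockout held 2.71 times the wild-type level untreated (log2 difference 1.44; limma adjusted p = 0.000151) and 2.27 times with EGF (1.18; adjusted p = 0.000357). The responses differed by -0.26, with a 95% interval from -0.66 to 0.14 (limma adjusted p = 0.70), and lay between -0.46 and -0.06 with either SYK-WT library left out. Whether such values led to the choice of SLPI is not recorded, so its p-values may not be independent of that choice.

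WFDC2 encodes HE4, a WAP protein used as a serum marker of ovarian carcinoma (chromosome 20, 44098393 to 44110172, hg19). It was listed at 0 in both SYK-WT libraries and in 1 library of each EGF group, and its highest value was 0.248 FPKM, in SYK-KO replicate 2. At the estimated depth these values correspond to 0 to about 4 fragments per library, and the gene did not reach the level required for the test. With no filter on low values the untreated knockout differed by 0.27 in log2(FPKM + 1) (limma adjusted p = 0.0252), which rests on 0 fragments in SYK-WT against about 2.74 and 4.09 in SYK-KO. The transcript was thus near the floor in a line whose clear cell carcinoma markers were all present.

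PI3, SLPI and WFDC2 lie in 1 stretch of chromosome 20, with SLPI starting 77.3 kb and WFDC2 294.9 kb from the start of PI3. The table lists 12 loci from PI3 to WFDC2, of which 5 were tested. The seminal genes SEMG1 and SEMG2, between PI3 and SLPI, reached at most 0.0117 FPKM in any group mean. SDC4, a cell surface proteoglycan whose locus starts 150.4 kb from PI3, past those of RBPJL and MATN4, and which was picked after its values were seen, held 83.8 and 89.7 FPKM in SYK-WT, 125 and 127 FPKM in SYK-WT EGF, 115 and 115 FPKM in SYK-KO and 142 and 148 FPKM in SYK-KO EGF. Its differences in the 4 pairwise comparisons were 0.20 to 0.54 in log2. They are a description with no p-value, because these values led to the choice of SDC4. PIGT, of the GPI anchor transferase, had group means of 22.9 to 27.4 FPKM and fell with EGF in SYK-KO cells (-0.25; limma adjusted p = 0.0307), and the locus of DBNDD2 and SYS1 had means of 20.1 to 21.5 FPKM. Silent and expressed genes therefore alternate along the stretch, and WFDC2 at its far end was near 0.

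**Figure D2:**
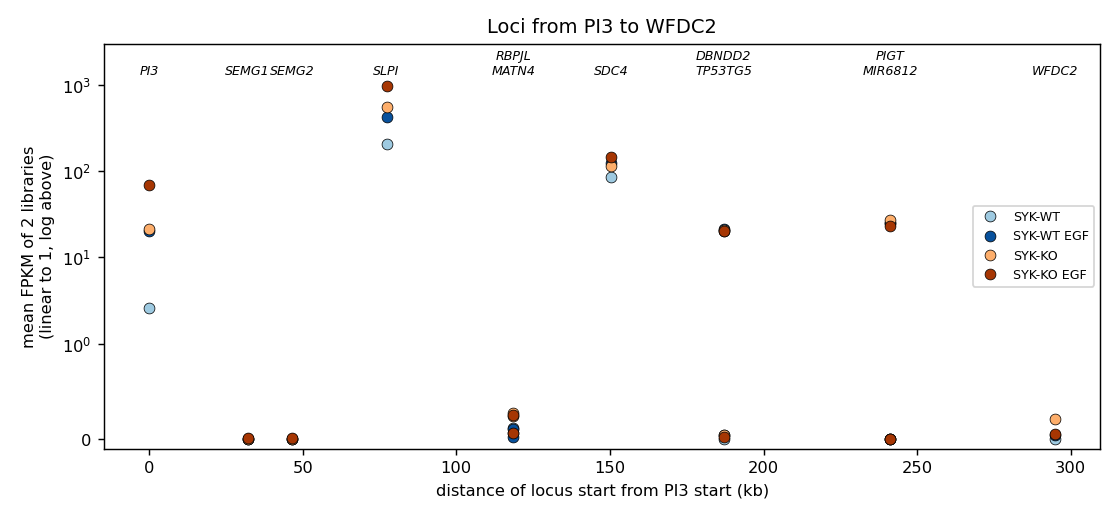
Mean FPKM of 2 libraries for each of the 12 loci from PI3 to WFDC2 (vertical axis linear to 1 and logarithmic above) against the distance of the locus start from that of PI3 in kb, with 1 point per group. PI3, SLPI and SDC4 spread widely by group. The locus of DBNDD2 and SYS1 at 187 kb and PIGT at 241.2 kb stay between 20.1 and 27.4 FPKM. The other 7 loci, WFDC2 among them, are near 0.

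SERPINB1 encodes an inhibitor of neutrophil elastase, cathepsin G and proteinase 3 that lacks a classical signal peptide (chromosome 6, 2832565 to 2842283, hg19). It measured 21.4 and 20.6 FPKM in SYK-WT, 95.9 and 92.5 FPKM in SYK-WT EGF, 17.8 and 17.4 FPKM in SYK-KO and 54.8 and 50.8 FPKM in SYK-KO EGF. All EGF libraries lay above all untreated ones, and within each treatment both knockout libraries lay below both wild-type libraries. EGF raised it 4.48-fold in SYK-WT cells (log2 difference 2.11 ± 0.0644, SE; limma adjusted p = 6.44e-06) and 2.996-fold in SYK-KO cells (1.53; adjusted p = 4.81e-05). As with SLPI, the values that led to its choice are not recorded, and these p-values may depend on them.

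In contrast to PI3 and SLPI, SERPINB1 was lower in the knockout. With EGF it stood at 0.56 of the wild-type level (log2 difference -0.82; limma adjusted p = 0.000106). Untreated it stood at 0.838 of that level (-0.24; limma adjusted p = 0.0197). This small difference did not pass without SYK-KO replicate 1 (limma adjusted p = 0.0863) or 2 (0.111), with only these groups in the fit (0.0734) or with library quality weights (0.0619), and q was 0.293 for it in the authors' deposited table. The difference of the EGF responses was -0.58, with a 95% interval from -0.79 to -0.37, and did not pass over all loci (limma adjusted p = 0.143), although it did without SYK-WT replicate 1 (0.0136).

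The promoter of SERPINB1 is shown because this member had the largest EGF response after PI3. The stretch is the 250 bases before the start of transcription on the minus strand, chr6:2841864-2842113 (GRCh38.p14, RefSeq), with matches to 4 motifs in capitals.
SERPINB1 promoter: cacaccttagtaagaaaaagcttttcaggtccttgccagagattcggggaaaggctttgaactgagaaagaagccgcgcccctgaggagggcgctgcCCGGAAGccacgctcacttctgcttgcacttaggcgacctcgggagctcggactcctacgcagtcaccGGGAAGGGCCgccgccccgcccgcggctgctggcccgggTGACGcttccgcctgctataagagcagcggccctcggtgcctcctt
The motifs were TGANTCA for AP-1, GGGA, any 4 bases and CC for NF-kappaB, TGACG for the core of the cyclic AMP response element, and CCGGAAG for ETS factors, each searched on both strands, with no overlap among the matches shown. The capitals mark CCGGAAG, then a match to the NF-kappaB motif and then TGACG. Of 35116 promoters of that length in the RefSeq table, 8.5% held the ETS motif, 22.6% the NF-kappaB motif and 21.2% the TGACG core, while the AP-1 motif, held by 6.6%, had no match in SERPINB1. A match is a description of letters only.

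SERPINB1 has 2 clade B neighbours on chromosome 6 that were tested. SERPINB9, the inhibitor of granzyme B, held 1.87 and 1.81 FPKM in SYK-WT, 2.79 and 3.27 FPKM in SYK-WT EGF, 1.13 and 1.19 FPKM in SYK-KO and 1.83 and 1.68 FPKM in SYK-KO EGF. It rose with EGF in wild-type cells (0.50; limma adjusted p = 0.00605) and was lower in the untreated knockout (-0.40; adjusted p = 0.00958), the same directions as SERPINB1 at a much lower level. The first call ended without SYK-WT EGF replicate 2 (limma adjusted p = 0.0529) and the second without SYK-KO replicate 1 (0.0689). SERPINB6, an inhibitor of cathepsin G and trypsin-like proteases, went the other way by genotype, with a mean of 10.5 FPKM in SYK-WT and 17.2 FPKM in SYK-KO (0.67; limma adjusted p = 0.00343). Its rise with EGF in SYK-WT cells (0.55; limma adjusted p = 0.0127) was 0.36 without SYK-WT replicate 1 and ended without SYK-WT EGF replicate 1 (limma adjusted p = 0.0599) or 2 (0.0843).

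SERPINB5 encodes maspin, a clade B serpin without known protease inhibition that is studied as a tumour suppressor (chromosome 18, 61144143 to 61172318, hg19). Libraries gave 0.432 and 0.182 FPKM in SYK-WT, 0.532 and 0.41 FPKM in SYK-WT EGF, 1.19 and 1.01 FPKM in SYK-KO and 1.64 and 1.64 FPKM in SYK-KO EGF. All 4 knockout libraries lay above all 4 wild-type libraries, at levels under 2 FPKM. The gene entered the test only because the knockout libraries reached 1 FPKM, so it had to differ by genotype and no test of that difference is given. The ratios of mean FPKM were 3.59 untreated and 3.48 with EGF, and the differences in log2(FPKM + 1), which understate changes at such levels, were 0.69 and 0.84 (1.63 and 1.61 with a pseudocount of 0.1). EGF gave 0.18 in SYK-WT cells, where the libraries overlapped (limma adjusted p = 0.282), and 0.33 in SYK-KO cells (adjusted p = 0.104). The latter passed without SYK-WT replicate 1 (limma adjusted p = 0.0306) or 2 (0.0307), when the fit held these groups alone (0.0332) and when libraries were weighted by quality (0.0266), and the former was 0.31 without SYK-WT replicate 1 (adjusted p = 0.0488) and 0.04 without replicate 2. The responses differed by 0.15 (limma adjusted p = 0.81), by -0.01 with a pseudocount of 0.1, 0.02 without SYK-WT replicate 1, 0.29 without SYK-WT replicate 2, and 0.09 without SYK-KO replicate 2 or without SYK-WT EGF replicate 2. SERPINB8, a further clade B gene of chromosome 18, rose with EGF in SYK-WT cells from a mean of 2.28 to 4.59 FPKM (0.77; limma adjusted p = 0.00378).

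SERPINA1 encodes alpha-1-antitrypsin, the main plasma inhibitor of neutrophil elastase (chromosome 14, 94843083 to 94857029, hg19). It was found at 9.72 and 8.38 FPKM in SYK-WT, 12.3 and 14.1 FPKM in SYK-WT EGF, 13.2 and 13.5 FPKM in SYK-KO and 14.0 and 15.7 FPKM in SYK-KO EGF. SYK-WT was the lowest group, and the ranges of SYK-WT EGF overlapped with both knockout groups. EGF raised it 1.46-fold in SYK-WT cells (log2 difference 0.50; limma adjusted p = 0.00944), and this did not pass when SYK-WT EGF replicate 2 was dropped (adjusted p = 0.0756) or with only these groups in the fit (0.052). The knockout held 1.48 times the wild-type level untreated (0.52; limma adjusted p = 0.00496). In SYK-KO cells the EGF change was 0.14 with a 95% interval from -0.09 to 0.36, and the genotype difference with EGF 0.15 with an interval from -0.07 to 0.38, neither of which passed (limma adjusted p = 0.42 and 0.232). Leaving out a SYK-KO EGF library gave 0.22 or 0.06 for the former, and the latter ran from 0.06 to 0.25 with a library of either EGF group left out. The responses differed by -0.36 (limma adjusted p = 0.514).

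Among the other members with a promoter in the RefSeq table, SERPINB5 held 1 match to AP-1, SERPINA3 held 1 match to the NF-kappaB motif, and WFDC2 and the 2 start sites of SERPINA1 held none. PI3, SLPI, CSTA and CST6 were not in the table.

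SERPINA3 encodes alpha-1-antichymotrypsin, an inhibitor of cathepsin G and chymase (chromosome 14, 95078713 to 95090390, hg19). It held 0.048 and 0.105 FPKM in SYK-WT, 0.0723 and 0.0786 FPKM in SYK-WT EGF, 0.0244 and 0.168 FPKM in SYK-KO and 0.311 and 0.401 FPKM in SYK-KO EGF. These correspond to about 1 to 16 fragments per library, and only the SYK-KO EGF libraries lay clear of the others. The gene did not reach the level required for the test. Fitted without a filter on low values, the difference between knockout and wild type with EGF was 0.33 in log2(FPKM + 1) (limma adjusted p = 0.0162) and the EGF change in SYK-KO cells 0.31 (adjusted p = 0.0559). The level of SERPINA1 was thus far above that of SERPINA3 in every library, although the genes lie on the same arm of chromosome 14.

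CST6 encodes cystatin E/M, a secreted inhibitor of legumain and of cathepsins V and L (chromosome 11, 65779461 to 65780976, hg19). It had the highest mean of the members in SYK-WT and the second highest, after SLPI, in the other groups, with 378 and 370 FPKM in SYK-WT, 405 and 428 FPKM in SYK-WT EGF, 341 and 331 FPKM in SYK-KO and 303 and 284 FPKM in SYK-KO EGF. No groups overlapped, and both EGF libraries lay above the untreated pair in wild-type cells and below it in knockout cells. With EGF the knockout stood at 0.704 of the wild-type level (log2 difference -0.50 ± 0.0633, SE; limma adjusted p = 0.000786). The other changes were small and did not pass: 0.15 for EGF in SYK-WT cells (limma adjusted p = 0.111), -0.20 for EGF in SYK-KO cells (0.0882) and -0.16 for the untreated knockout (0.0841). The change in SYK-KO cells passed without SYK-WT replicate 1 (limma adjusted p = 0.0398) or 2 (0.0385) and with library quality weights (0.0309). The difference of the responses was -0.35, with a 95% interval from -0.56 to -0.14, and did not pass over all loci (limma adjusted p = 0.35).

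CSTA encodes cystatin A, an intracellular inhibitor of cathepsins B, H and L and part of the cornified envelope of skin (chromosome 3, 122044010 to 122060815, hg19). Its highest value was 0.155 FPKM, in SYK-KO replicate 1, and it was listed at 0 in SYK-KO EGF replicate 1. This amounts to about 0 to 3 fragments per library, and no difference was detectable at this depth, with or without a filter on low values. The expressed cystatins of the line were CST6 and, outside the 9 genes, CSTB, at group means of 717 to 1446 FPKM, and CST3, at 199 to 260 FPKM.

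**Figure D3:**
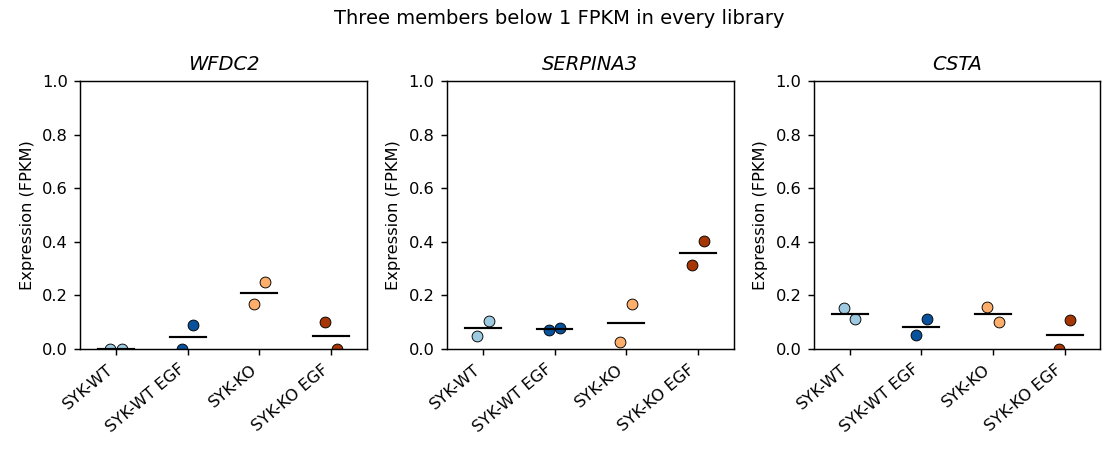
Expression in FPKM (vertical axes from 0 to 1) of the 3 members that stayed below 1 FPKM in all 8 libraries, with 1 point per library, lines at the mean of 2 libraries and the 4 groups along the horizontal axis. The SERPINA3 values of SYK-KO EGF, 0.311 and 0.401 FPKM, lie above all other values in the plot.

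Of the 9 members 6 were tested and 3 were too low. PI3 is left out of the counts for EGF and for the difference of responses, and SERPINB5 out of those for genotype, which leaves 5 members in each comparison. In SYK-WT cells EGF was called higher for 3 of the 5 (SLPI, SERPINA1 and SERPINB1) and lower for 0, beside 14.7% of all 12112 tested loci called higher and 12.1% lower. In SYK-KO cells it was called higher for 2 (SLPI and SERPINB1) and lower for 0, beside 6.67% and 5.13% of all loci. The untreated knockout was called higher for 3 (PI3, SLPI and SERPINA1) and lower for 1 (SERPINB1), beside 20.3% and 20.2% of all loci. The call of PI3 there rests on the SYK-WT libraries that also enter its EGF rise. With EGF the knockout was called higher for 2 (PI3 and SLPI) and lower for 2 (SERPINB1 and CST6), beside 21.1% and 22.5%. The difference of the responses was called for 0 of the 5, of which 3 had an unadjusted p under 0.05, and for 0.00826% of all loci. The comparisons share groups, so their counts are not independent. Since the genes were chosen with such values known, nothing is read from these counts.

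**Figure D4:**
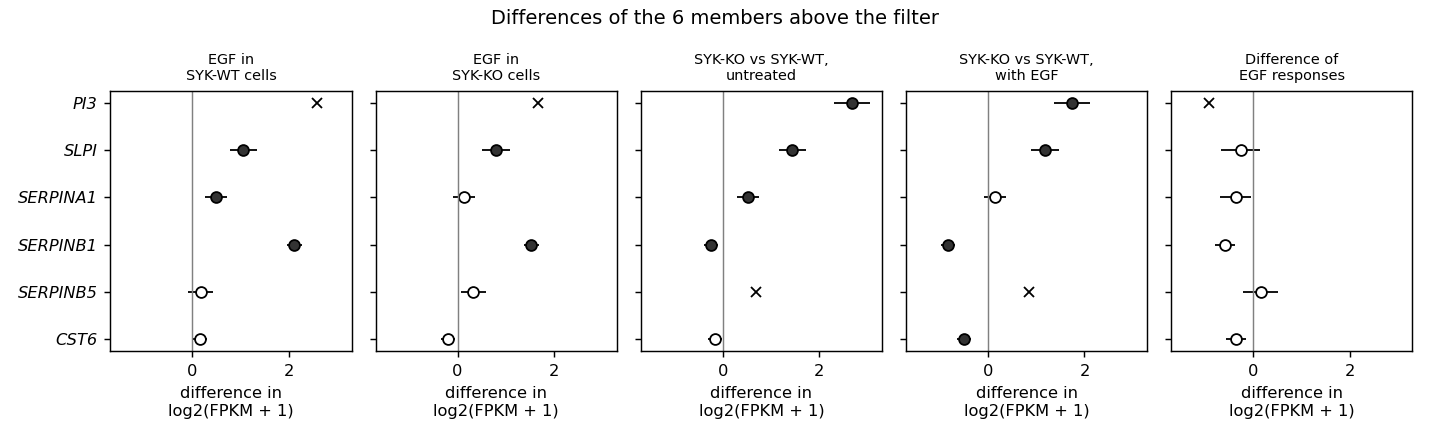
Differences in log2(FPKM + 1) (horizontal axes) of 6 members in the 5 comparisons, with bars for the 95% interval, filled points for an adjusted p under 0.05, open points otherwise and crosses without bars where no test is given. PI3 and SLPI lie to the right of 0 in the first 4 panels, SERPINB1 lies to the right for EGF and to the left for the knockout, and no point for the difference of responses is filled.

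The members thus fell into different orders of groups. PI3 and SLPI were lowest in SYK-WT and highest in SYK-KO EGF. SERPINB1 was highest in SYK-WT EGF and lowest in SYK-KO, SERPINB5 was split by genotype, and CST6 was highest in SYK-WT EGF and lowest in SYK-KO EGF. The loci whose log2 values followed PI3 most closely over the 8 libraries were CD109 (Pearson r = 0.996), WSB2, CORO1C, CARS2 and DNAJC2 (each 0.992), out of 8325 loci with at least 5 FPKM in a group. These are the extremes of many correlations over libraries that share 4 groups, and are given as a description. CD109, a membrane-bound relative of the alpha-2-macroglobulin inhibitors, held 2.99 and 2.83 FPKM in SYK-WT, 5.94 and 6.32 FPKM in SYK-WT EGF, 5.93 and 5.95 FPKM in SYK-KO and 9.97 and 10.1 FPKM in SYK-KO EGF.

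Other inhibitors were read from lists of whole families. A gene that reached 1 FPKM only on 1 side of a comparison is given there with no test and left out of the counts. Each count of calls is to be read beside the shares of all loci, which were 14.7% higher and 12.1% lower for EGF in SYK-WT cells and 20.3% and 20.2% for the untreated knockout. Those shares keep loci that reached 1 FPKM on only 1 side of a comparison. Of 17 other genes of the WAP family and its cluster, which include the Kunitz inhibitor genes SPINT3 and SPINT4, only ANOS1, the anosmin gene, was expressed enough to be fitted. It fell with EGF in SYK-WT cells (-0.56; limma adjusted p = 0.00461; -0.91 with a pseudocount of 0.1). It reached 1 FPKM only in wild-type libraries, and its mean was 1.86 FPKM in SYK-WT and 0.155 FPKM in SYK-KO. Of 9 other clade A serpins 2 were tested in each comparison, with 0 higher and 1 lower both for EGF in SYK-WT cells and for the untreated knockout. Of 11 other clade B serpins 3 were tested, with 3 higher for EGF and, for the knockout, 2 higher and 1 lower. Of 11 serpins of other clades 3 were tested for EGF, with 2 higher and 0 lower, and 1 for the knockout, which was higher. This was SERPINE2, the protease nexin that inhibits thrombin and urokinase, with a mean of 14.5 FPKM in SYK-WT, 56.1 FPKM in SYK-WT EGF, 40.4 FPKM in SYK-KO and 85.4 FPKM in SYK-KO EGF, lowest in SYK-WT and highest in SYK-KO EGF as for PI3 and SLPI. It was called in both comparisons (1.88 and 1.42; limma adjusted p = 2.76e-05 and 3.86e-05).

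Of 11 other cystatins 2 were tested, CSTB and CST3, and both were called higher in either comparison. The calls for EGF ended without SYK-WT EGF replicate 2 (limma adjusted p = 0.131 and 0.0686) and those for the knockout without SYK-KO replicate 1 (0.0963 and 0.161). Of 25 Kunitz, Kazal and macroglobulin inhibitors 6 were tested, with 3 higher and 1 lower for EGF and 3 and 1 for the knockout. For EGF, TFPI2 (higher, limma adjusted p = 0.0494) and RECK (lower, 0.0489) lay just under the threshold. Of 17 alternatives, TFPI2 kept its EGF call in 5 and TFPI in 11. TFPI, the inhibitor of the tissue factor pathway, went from a mean of 1.38 FPKM in SYK-WT to 5.81 FPKM in SYK-KO (1.52; limma adjusted p = 0.00014). The medians over tested genes were 0.55 (EGF) and 0.57 (knockout) for other clade B serpins, 0.42 and 0.39 for cystatins and 0.32 and 0.26 for the Kunitz, Kazal and macroglobulin list, against 0.01 and -0.01 over all tested loci. With so few tested genes per list these medians describe those genes alone.

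The proteases these inhibitors act on followed several patterns. Among 5 neutrophil serine protease genes ELANE was listed at 0 in every library, while PRTN3, proteinase 3, was measured at 2.03 to 4.52 FPKM over the 8 libraries. Of the 5 genes 1 was tested for EGF and not called, and 2 were tested for the knockout, with 1 higher and 0 lower. PRTN3 lies beside ELANE on chromosome 19, and it was called higher in the untreated knockout (0.54; limma adjusted p = 0.0233), which was 0.29 and ended without SYK-KO replicate 1 (adjusted p = 0.114). Of 11 epithelial serine proteases 5 were tested, with 1 higher and 1 lower for EGF and 3 and 1 for the knockout, beside 14.7% and 12.1% and 20.3% and 20.2% of all loci. Of 17 alternatives, the lower EGF call of PRSS23 was kept in 8 and the higher knockout call of TMPRSS4 in 8. The higher knockout call of PRSS23 was kept in 16, and both calls of PRSS22 in 17. PRSS22, a tryptase of epithelia, rose with EGF from a mean of 129 to 438 FPKM in SYK-WT cells (1.76; limma adjusted p = 2.47e-05) and was lower in the untreated knockout at 78.4 FPKM (-0.71; adjusted p = 0.000496), the directions seen for SERPINB1.

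Of 12 genes for cysteine cathepsins and legumain 11 were tested for EGF and 10 for the knockout. EGF in SYK-WT cells was called higher for 1, CTSB, and lower for 2, beside 14.7% and 12.1% of all loci, with a list median of -0.06 against 0.01 over all loci. The untreated knockout was called higher for 7 and lower for 0, beside 20.3% and 20.2% of all loci, with a list median of 0.36 against -0.01. Of the 7, CTSC, CTSO and LGMN kept their calls in 17 of 17 alternatives. The others, CTSF, CTSK, CTSL and CTSZ, had limma adjusted p from 0.0228 to 0.028, and whether they keep their calls under the alternatives was not tested. LGMN, the legumain that CST6 inhibits, stood at 38.7 and 31.7 FPKM in untreated wild-type cells against 66.3 and 69.1 FPKM in untreated knockout cells (0.93; limma adjusted p = 0.000326). CTSO, a lysosomal cathepsin, went from a mean of 1.93 to 4.60 FPKM (0.93; limma adjusted p = 0.000191). The other named targets of CST6 did not move alike in the untreated knockout. CTSL was higher (0.34, limma adjusted p = 0.0253), while CTSV lay lower and did not pass (-0.21, limma adjusted p = 0.075). CST6 itself did not pass there, at -0.16 with a 95% interval from -0.30 to -0.01. With EGF the genotype differences of CTSL (0.02, limma adjusted p = 0.852) and CTSV (-0.17, 0.119) did not pass.

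**Figure D5:**
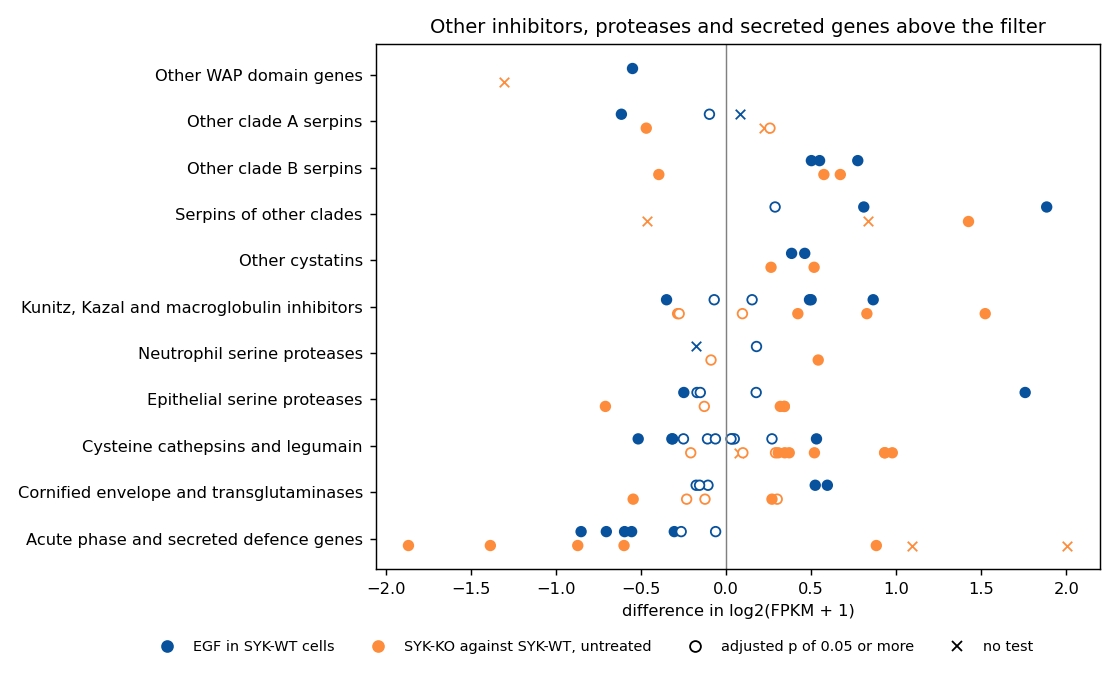
Differences in log2(FPKM + 1) (horizontal axis) for each fitted gene of 11 lists (rows), with 1 point per gene and comparison, filled where the adjusted p is under 0.05 and a cross where no test is given. Most clade B serpin, cystatin and cathepsin points for the untreated knockout lie to the right of 0, and the acute phase points for EGF lie to its left.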

How the data were processed

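The authors deposited FPKM per library and locus, made with TopHat, Cufflinks and Cuffdiff 2.2.1.3 on hg19, per the submitters' processing notes. Which parameters, scaling and strand setting they used is not given in the sources used here. Printed q-values come from the authors' deposited table, which also holds p-values, per the file headers, that are not printed. Libraries were matched by title, and repeated columns were equal. Symbols were found for 27541 of 27757 loci through RefSeq (GRCh38.p14) or GENCODE. Members and lists were chosen with earlier results of these data known.

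A locus was kept if 2 or more libraries reached 1 FPKM (12112 loci). A model in limma 3.58.1 (R 4.3.3) gave each group its mean of log2(FPKM + 1) over all 8 libraries, with 4 residual degrees of freedom and the spread trended on the level. The test fixed for counts was not used because the table holds FPKM. Two-sided p-values had Benjamini-Hochberg adjustment across all tested loci, with a threshold of 0.05. An exact permutation test of 2 against 2 libraries cannot go below 0.333 and was not used. Genes that reached 1 FPKM on only 1 side of a comparison were set aside there after the values were seen, as were the EGF values of PI3. The shares of all loci keep such loci. The fit was tested on simulated data. Depth was estimated from the steps of low values at 984 loci and holds only if each library was scaled by its own fragments. Of the list genes, up to 3 called ones per list with the largest change were eligible to be named, at loci with 1 symbol. Some list genes were named outside this rule, among them RECK for EGF and CTSL and CTSV as targets of CST6. Alternatives covered pseudocount, filter, groups fitted, scaling, weights, trend, replicate block and each library left out. Tables and plots used python 3.11.15, pandas 2.3.3 and matplotlib 3.10.9. Some items are not reported here.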

Additional observations from a re-analysis of the deposited data

Results flagged for a closer look

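CST6 was picked out because both EGF libraries lay above the untreated pair in SYK-WT cells (405 and 428 against 378 and 370 FPKM) and below it in SYK-KO cells (303 and 284 against 341 and 331 FPKM). The difference of the responses was -0.349 in log2(FPKM + 1), and it did not pass over all loci (limma adjusted p = 0.35).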

How the results depend on the processing

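Over 30 member values and 499 alternatives, 498 kept their direction. The exception was SERPINB5 in the difference of responses, near 0 with a pseudocount of 0.1 (-0.01). The call was kept or remained missing in 480, lost in 9 and gained in 10. The counts of members here include PI3 and SERPINB5. For EGF in SYK-KO cells the 3 members called became 5 with library quality weights, and ranged from 2 to 5 without 1 library, with 5 without SYK-WT replicate 1 or 2. For the difference of responses the count ranged from 0 to 2, with 2 without SYK-WT replicate 1. The cause was not tested. Of 46 values of list genes, 21 kept their call under every alternative, 25 lost it under at least 1 and 0 changed direction. With 1 library of a group left out, the other is assumed to vary like the other groups. The stricter filter dropped SERPINB5.

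With the replicate number as a block the members called were 4, 3, 5, 5 and 0 in the 5 comparisons, as without it. Deviations of same-numbered libraries correlated at -0.381 to 0.27, negatively for each pair with SYK-WT EGF, so the numbers are not taken to pair libraries. Crossing the numbers of SYK-WT EGF, chosen after the data were seen, gave 4, 3, 5, 5 and 0.

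Over all loci the calls for EGF in SYK-WT, 3238, were 1254 with only these groups in the fit, 1877 with quality weights and 1255 to 5108 without 1 library. For EGF in SYK-KO the 1429 calls were, in the same order, 2646, 3024 and 319 to 2984. For the untreated knockout the 4902 calls were 3007 with only these groups and 2460 to 5935 without 1 library, with EGF the 5277 were 2952 to 6835 without 1 library, and for the difference the 1 call was 0 to 867 without 1 library and at most 3 otherwise.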

Other observations

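SERPINA1 and SERPINA3 belong in liver to the acute phase and secreted defence genes. Of 17 others 7 were tested for EGF in SYK-WT cells, with 0 higher and 5 lower beside 14.7% and 12.1% of all loci. Among the 5 is FGB, with means of 0.348 FPKM in SYK-WT and 0.09 FPKM in SYK-WT EGF, fitted only because knockout libraries reached 1 FPKM. LTF, counted as tested, was also below 1 FPKM in those groups. Another of the 5 is a locus that merges SAA2 with SAA4, so the count rests partly on uncertain entries. For the untreated knockout 5 were tested, with 1 higher and 4 lower beside 20.3% and 20.2% of all loci. FGB and LTF are left out of that count because they reached 1 FPKM only in knockout libraries, while the shares of all loci keep such loci. Both had higher means in the knockout, so the excess of lower calls rests partly on leaving them out. LTF had a mean of 0.593 FPKM in SYK-WT and 2.40 FPKM in SYK-KO. The EGF calls of CP, C3 and SAA1 ended without SYK-WT EGF replicate 1 (limma adjusted p = 0.0963, 0.116 and 0.139). The complement gene C3 went from a mean of 16.1 FPKM in untreated wild-type cells to 3.63 FPKM in the knockout (-1.87; limma, Benjamini-Hochberg adjusted p = 0.000132). The fibrinogen chain FGB, given with no test of genotype, had a mean of 0.348 FPKM in SYK-WT and 4.42 FPKM in SYK-KO. Hepatocyte markers stayed at or below 0.0957 FPKM in sum in every library.

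Genes of the cornified envelope, where PI3 and CSTA are anchored in skin, and of transglutaminases form 1 list and were mostly silent: 5 of 15 were tested. EGF in SYK-WT cells was called higher for 2 and lower for 0, beside 14.7% and 12.1% of all loci, and the untreated knockout higher for 1 and lower for 1, beside 20.3% and 20.2%. The EGF calls were SCEL and the transglutaminase TGM2, and the knockout calls were CNFN (higher) and PPL (lower). Of 17 alternatives, TGM2 kept its EGF call in 8 and CNFN its knockout call in 9, while SCEL and PPL kept theirs in 17. SCEL, the sciellin of the envelope, went from a mean of 82.6 to 119 FPKM with EGF (0.52; limma adjusted p = 0.00185), and the periplakin PPL from 50.0 to 33.8 FPKM in the knockout (-0.55; limma adjusted p = 0.00528).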
